A study of Arabidopsis thaliana with 12 samples.

Results

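The 10 genes described here form the core of the circadian clock of Arabidopsis thaliana: CCA1 (AT2G46830), LHY (AT1G01060), PRR9 (AT2G46790), PRR7 (AT5G02810), PRR5 (AT5G24470), TOC1 (AT5G61380), GI (AT1G22770), ELF3 (AT2G25930), ELF4 (AT2G40080) and LUX (AT3G46640). They were chosen by locus from a list of known clock genes. All 10 were among the 21200 genes of the deposited count table and among the 18867 that passed the filter on low counts. RNA came from whole roots of wild-type Columbia seedlings grown on agar, with 16 h of light a day and 8 h of darkness. At 4 days after planting the roots received 2 uL of bacteria suspended in 0.9% saline at an OD595 of 1, or 2 uL of the saline alone. The 6 groups were the soil bacterium Azospirillum brasilense Az39 (Az39), its ipdc mutant (ipdc) and saline (NaCl), each harvested 7 d and 24 h after treatment, with n = 2 libraries a group and at least 50 root systems pooled per library. The ipdc gene, lost in the mutant, codes for the indole-3-pyruvate decarboxylase with which the bacterium makes auxin. The hour of the day at which roots were harvested is not given in the labels.

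The plant clock is a network of transcription factors that repress each other in turn over the day. CCA1 and LHY are MYB factors whose transcripts peak around dawn and which repress evening genes. The pseudo-response regulators PRR9, PRR7, PRR5 and TOC1 follow from morning to evening and repress CCA1 and LHY. ELF3, ELF4 and LUX form the evening complex, in which LUX binds DNA and which represses genes such as PRR9, while GI acts with the photoreceptor ZTL on the stability of TOC1. The clock of the root is set by light and by signals from the shoot.

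LUX, PRR5 and ELF3 are 3 of the members that passed the test in a treatment comparison, and TOC1 is the textbook target of CCA1. The stretches before the starts of these 4 genes hold matches to motifs through which clock proteins are known to act on each other. Each is the 250 bases before the annotated start in RefSeq TAIR10.1, 5′ to 3′ on the strand of the gene, at chr3:17182792-17183041 (plus strand) for LUX, chr5:8358547-8358796 (minus) for PRR5, chr2:11058694-11058943 (plus) for ELF3 and chr5:24674713-24674962 (plus) for TOC1. Capitals mark matches on either strand to the evening element (AAAATATCT), the CCA1 binding site (AAAAATCT), the G-box (CACGTG) and the LUX binding site (GATACG or GATTCG).
LUX: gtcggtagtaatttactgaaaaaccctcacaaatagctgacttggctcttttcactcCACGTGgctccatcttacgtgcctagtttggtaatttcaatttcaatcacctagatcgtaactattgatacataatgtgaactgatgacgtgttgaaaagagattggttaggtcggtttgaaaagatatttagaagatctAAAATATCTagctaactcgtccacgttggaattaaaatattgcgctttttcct
PRR5: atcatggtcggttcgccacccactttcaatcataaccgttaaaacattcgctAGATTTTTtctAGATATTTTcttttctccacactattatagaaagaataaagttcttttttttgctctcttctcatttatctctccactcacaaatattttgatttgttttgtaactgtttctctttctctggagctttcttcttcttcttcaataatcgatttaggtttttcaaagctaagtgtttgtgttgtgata
ELF3: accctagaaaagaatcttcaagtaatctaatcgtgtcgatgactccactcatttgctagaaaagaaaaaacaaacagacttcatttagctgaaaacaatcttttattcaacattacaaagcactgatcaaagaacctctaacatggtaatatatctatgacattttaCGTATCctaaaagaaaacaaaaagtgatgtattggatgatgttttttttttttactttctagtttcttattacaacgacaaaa
TOC1: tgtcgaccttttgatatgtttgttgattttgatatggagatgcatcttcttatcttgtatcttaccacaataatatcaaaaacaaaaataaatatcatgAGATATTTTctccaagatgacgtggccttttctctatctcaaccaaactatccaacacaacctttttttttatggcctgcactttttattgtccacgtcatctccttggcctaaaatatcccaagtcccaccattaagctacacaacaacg

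In windows of 250 bases before to 50 after the start, the evening element was in 4 of the 9 members searched (TOC1, PRR5, PRR9 and LUX) and in 2.82% of the 27443 windows of protein-coding genes. In PRR5 it lay at bases -187 to -179, beside a CCA1 binding site at -198 to -191, a motif that no other member searched held and that was in 7.88% of all windows. Positions in PRR5 may be counted from its start codon, since the bases after its annotated start begin with atg. The LUX binding site was in 2 of the 9, PRR9 and ELF3, against 14.5% of all windows. The only match in ELF3 was to this motif. The G-box was in 5 of the 9, CCA1, LHY, PRR7, PRR9 and LUX, against 7.68%. No match to the 4 motifs was in the window of GI. These matches are a description of letters and not of binding.

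Dawn and evening genes stood far apart in every library. Per kb of exon, the only scale on which genes are compared here, the median level over the 12 libraries was 35.3 CPM per kb for TOC1, 32.9 for PRR7, 27.0 for GI, 24.6 for ELF4, 21.5 for PRR5 and 19.8 for ELF3. LUX was lower at 9.43 CPM per kb, PRR9 stood at 4.18, CCA1 at 2.38 and LHY at 1.97. The exon length used for LUX, 3916 bases, covers nearly its whole locus. That of PRR5, 1677 bases, may leave out untranslated parts. The places of LUX and PRR5 in this order thus depend on the gene model. On the same scale TOC1 was at percentile 82.4 of all genes tested and LHY at percentile 14.3. TOC1 was 10.1 to 34.2 times the mean of CCA1 and LHY, with a median of 16.7, and GI 8.86 to 18.2 times. In all 12 libraries CCA1 and LHY were thus below TOC1 and GI. The range of each gene over the day in these roots is not known, so this order alone gives no hour of harvest.

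**Figure D1:**
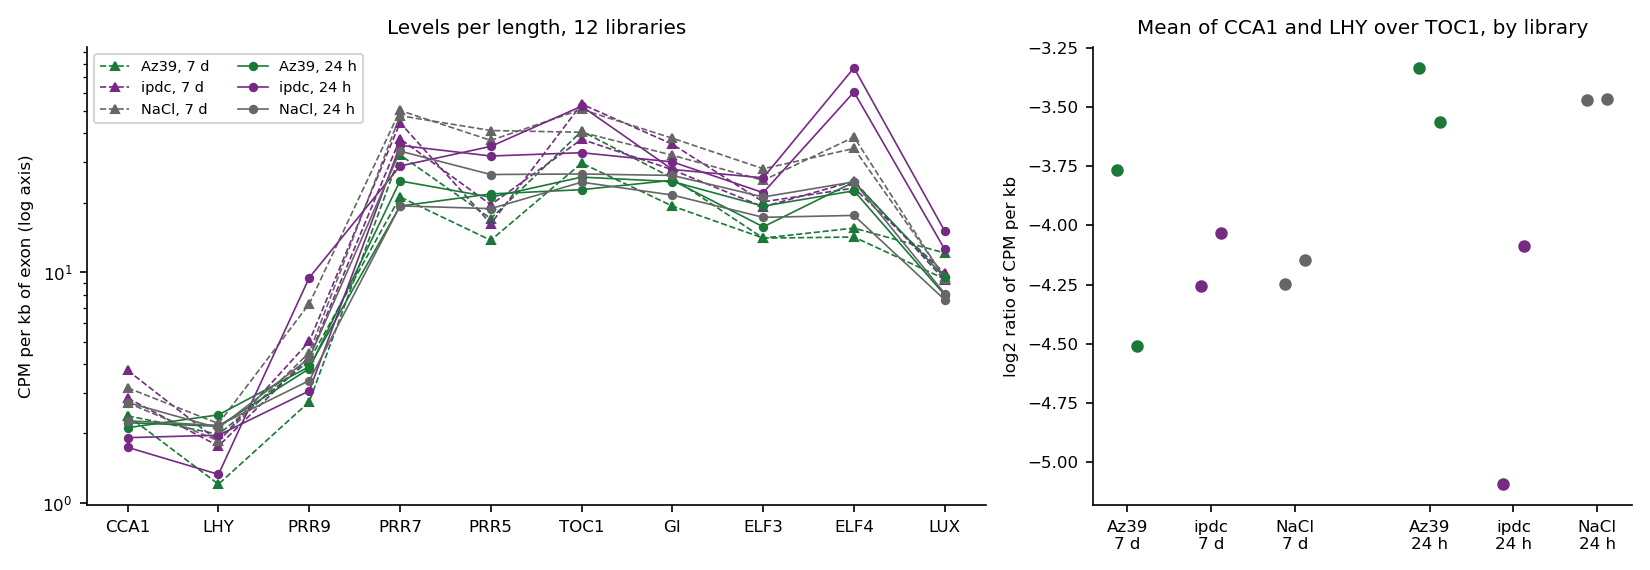
Left: level of each clock gene in CPM per kb of exon (log axis), 1 line per library, by treatment (colour) and time (dashed for 7 d, solid for 24 h). Right: log2 ratio of the mean of CCA1 and LHY to TOC1, per kb, 1 point per library; the lowest is -5.10 in an ipdc library at 24 h and the highest -3.33 in an Az39 library at 24 h.

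The ratio of the dawn pair to TOC1 is given as a description, since no library of known hour calibrates it as a time of day. Its log2 was -3.77 and -4.51 with Az39, -4.26 and -4.03 with ipdc and -4.25 and -4.15 with NaCl at 7 d. The 24 h libraries stood at -3.33 and -3.56 with Az39, -5.10 and -4.09 with ipdc and -3.47 and -3.46 with NaCl. The ratio was lower in both NaCl 7 d libraries than in both NaCl 24 h libraries, and at 24 h both ipdc libraries lay below the other 4. The libraries of a group lay furthest apart with ipdc at 24 h and with Az39 at 7 d. A second ratio, PRR9 to PRR5, had a log2 of -3.38 to -1.69 over the 12 libraries. It stood at -1.89 and -3.38 in the first and second ipdc libraries at 24 h, the opposite order to the first ratio. Neither ratio is calibrated in hours, so their disagreement in this pair shows nothing about an order of the libraries in time. Whether harvest hours differed between libraries was not tested, and harvest hour and treatment cannot be told apart from these counts.

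CCA1 and LHY were scarce in roots, with 50 to 166 and 48 to 161 reads per library. In TMM-scaled CPM, the library-size scale used below, CCA1 stood at 6.49 and 6.49 with Az39, 10.20 and 7.74 with ipdc and 8.58 and 7.38 with NaCl at 7 d. The 24 h libraries held 5.76 and 6.06 CPM of CCA1 with Az39, 4.73 and 5.22 with ipdc and 6.17 and 7.40 with NaCl. The order of the groups ran from ipdc at 7 d at the top to ipdc at 24 h at the bottom, and from the highest group to the fourth each overlapped the next. LHY held 6.78 and 4.12 CPM with Az39, 6.33 and 6.03 with ipdc and 7.54 and 6.35 with NaCl at 7 d, and 8.23 and 7.35 with Az39, 4.54 and 6.72 with ipdc and 7.41 and 7.22 with NaCl at 24 h. Its range over libraries was 2.0-fold, and the groups overlapped their neighbours in the order of means except NaCl and ipdc at 7 d.

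Among the pseudo-response regulators PRR5 set the groups apart most. PRR5 held 23.1 and 28.7 CPM with Az39, 27.2 and 32.9 with ipdc and 62.5 and 69.0 with NaCl at 7 d. At 24 h the values were 36.6 and 35.5 CPM with Az39, 58.9 and 53.5 with ipdc and 31.6 and 44.5 with NaCl. NaCl at 7 d was thus the highest group and the inoculated roots of the same day the lowest, with no overlap between them. In the order of means NaCl at 7 d, ipdc at 24 h and NaCl at 24 h were apart from each other, as were Az39 at 24 h and ipdc at 7 d, and the other neighbours overlapped. PRR7 held 68.5 and 104 CPM with Az39, 144 and 122 with ipdc and 162 and 154 with NaCl at 7 d, and 62.6 and 80.4 with Az39, 93.3 and 115 with ipdc and 62.7 and 108 with NaCl at 24 h. NaCl and ipdc at 7 d, the top of its order, did not overlap each other or the next group, and the lower 4 overlapped. PRR9, the earliest of the series, held 8.85 and 5.87 CPM with Az39, 10.7 and 9.18 with ipdc and 15.6 and 9.59 with NaCl at 7 d. Its 24 h values were 8.33 and 8.17 with Az39, 20.3 and 6.54 with ipdc and 7.25 and 9.06 with NaCl, so that the ipdc pair held both the highest and the lowest library of that time. TOC1 held 83.4 and 115 CPM with Az39, 150.4 and 106 with ipdc and 143 and 114 with NaCl at 7 d, and 64.0 and 72.5 with Az39, 147 and 92.6 with ipdc and 69.0 and 74.8 with NaCl at 24 h. NaCl and Az39 at 24 h were the low groups of TOC1 and did not overlap the other 4. GI, whose transcript peaks late in the day in textbook accounts, held 83.3 and 110.1 CPM with Az39, 154 and 119.6 with ipdc and 164 and 138 with NaCl at 7 d. Its 24 h values were 108 and 106 with Az39, 119.9 and 129 with ipdc and 92.9 and 113 with NaCl, and only ipdc and Az39 at 24 h were neighbours in the order of means that did not overlap.

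The evening complex held the gene with the widest range of the 10. ELF4 stood at 8.79 and 9.61 CPM with Az39, 14.3 and 15.35 with ipdc and 21.3 and 23.9 with NaCl at 7 d. At 24 h it stood at 15.23 and 13.95 CPM with Az39, 47.6 and 37.4 with ipdc and 10.9 and 15.25 with NaCl. Both ipdc libraries at 24 h were above all 10 others, and the highest library was 5.42-fold the lowest. NaCl at 7 d was next, apart from the groups below it, and Az39 at 7 d was lowest, apart from those above it. ELF3 held 38.6 and 38.6 CPM with Az39, 55.5 and 52.8 with ipdc and 77.2 and 68.7 with NaCl at 7 d, and 43.2 and 53.2 with Az39, 70.5 and 60.8 with ipdc and 47.5 and 58.2 with NaCl at 24 h. Its Az39 libraries at 7 d were the lowest of the 12. LUX held 36.6 and 47.4 CPM with Az39, 38.7 and 36.1 with ipdc and 37.3 and 36.7 with NaCl at 7 d, and 37.1 and 31.2 with Az39, 59.0 and 49.2 with ipdc and 29.7 and 31.6 with NaCl at 24 h. Both ipdc libraries at 24 h were again above all others. The counts of LUX could hold reads of AT3G46650, which overlaps it by 1507 bases on the other strand and had 26 to 238 reads, since the kit named in the labels does not mark strand. ELF3 overlaps AT2G25940 by 24 bases and an annotated antisense RNA by 183 bases.

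**Figure D2:**
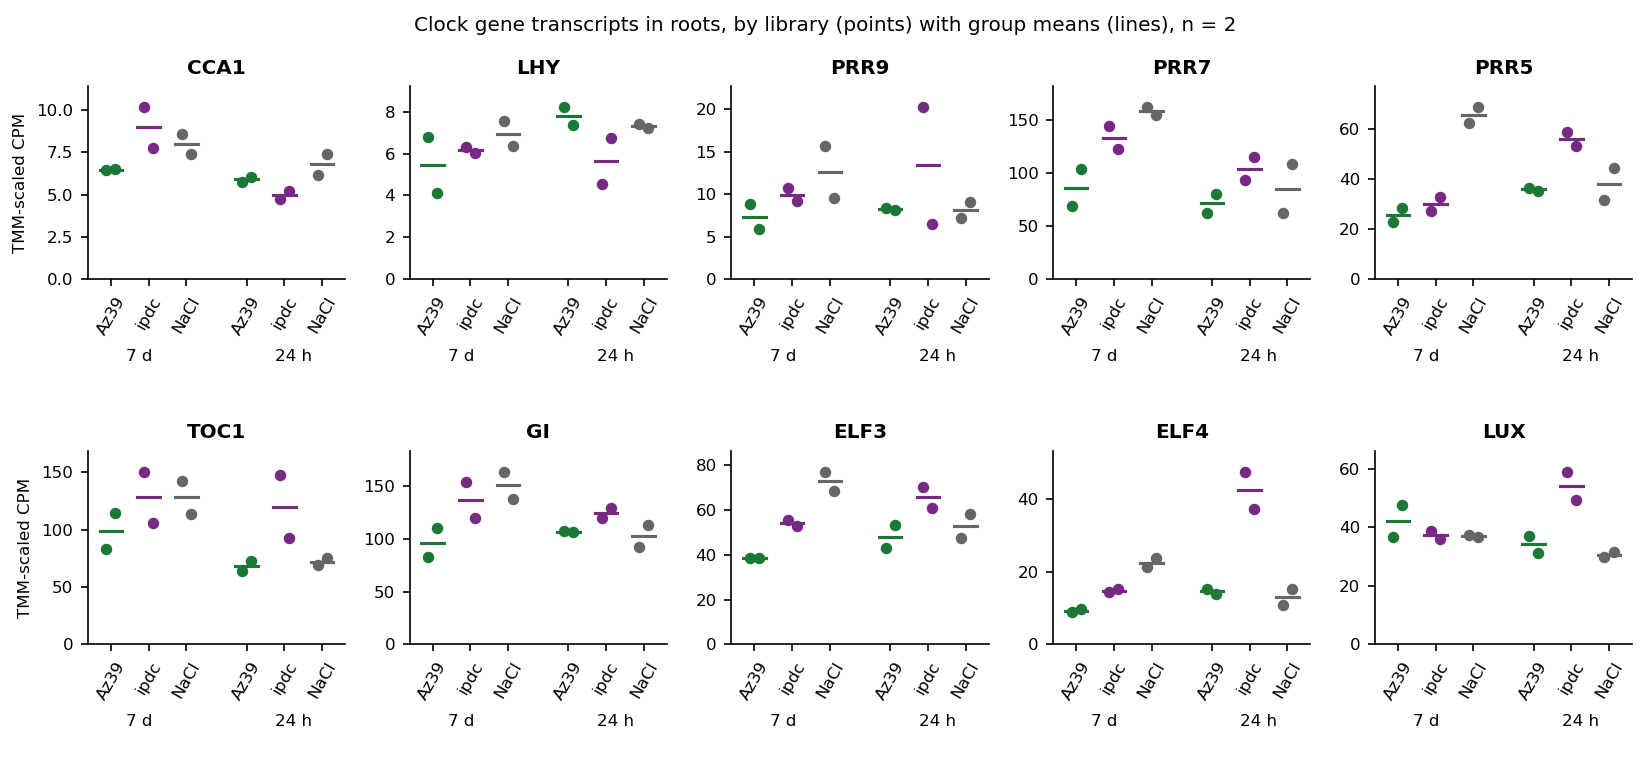
TMM-scaled CPM of the 10 clock genes in each library (points) with group means (lines), n = 2 libraries a group, for Az39, ipdc and NaCl at 7 d and at 24 h. ELF4 is highest with ipdc at 24 h, at 47.6 and 37.4 CPM, and PRR5 with NaCl at 7 d, at 62.5 and 69.0 CPM.

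At 7 d the question was whether roots that had lived with the wild-type strain differed from saline roots in clock transcripts. In Az39 roots PRR5, ELF4 and ELF3 fell, and 9 of the 10 members had a log2 fold change below 0, with a median of -0.71 against 0.051 over all genes. PRR5 stood at -1.35 ± 0.20 (log2 fold change ± standard error, edgeR adjusted p = 0.0124), ELF4 at -1.30 ± 0.21 (adjusted p = 0.0159) and ELF3 at -0.92 ± 0.17 (adjusted p = 0.0245). That is 3 of 10 members, while 1.34% of all tested genes were called lower. In a bulk sample fewer cells of a type and less RNA per cell cannot be told apart. Not passing were PRR7 at -0.87 ± 0.28 and GI at -0.64 ± 0.20, with adjusted p of 0.105 and 0.0918, and PRR9 at -0.77 ± 0.45. The dawn genes CCA1 and LHY stood at -0.30 ± 0.23 and -0.35 ± 0.29, TOC1 at -0.37 ± 0.26 and LUX, the DNA-binding member of the evening complex, at 0.18 ± 0.17. The Az39 libraries lay below both NaCl libraries in 7 of the 10 members, against 26.4% of all genes. In the same comparison 7 of the 10 root markers were below 0, 3 of them with an unadjusted p under 0.05 and 0 past the threshold by edgeR, with a median of -0.54 and PHT1;1, a phosphate transporter gene, at -1.55 ± 0.42 (adjusted p = 0.0670). The part of root makeup in the clock results was not tested. The PRR5 and ELF4 calls were lost without the first Az39 library (-1.20 and -1.23, adjusted p = 0.0610 and 0.0718) or the second NaCl library (-1.275 and -1.21, adjusted p = 0.127 and 0.128). The ELF3 call was lost without each of the 2 Az39 and 2 NaCl libraries at 7 d, at -1.0 to -0.83 with adjusted p of 0.0588 to 0.128.

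With the ipdc strain at 7 d 0 members passed edgeR, against 0.0159% of all genes, although 3 had an unadjusted p under 0.05. DESeq2 called 1 member and limma-voom 0. PRR5 again had the lowest fold change, -1.13 ± 0.20, with an adjusted p of 0.149, and ELF4 stood at -0.61 ± 0.20 and ELF3 at -0.43 ± 0.17. The median of the members was -0.21 against 0.041 over all genes, and the ipdc libraries lay below both NaCl libraries in 5 members, against 23.7% of all genes. Between the strains at 7 d, Az39 against ipdc, 0 members passed edgeR, DESeq2 or limma-voom, 3 had an unadjusted p under 0.05, and 0.117% of all genes passed. ELF4 stood at -0.69 ± 0.21 (adjusted p = 0.371), ELF3 at -0.49 ± 0.17 and PRR5 at -0.22 ± 0.20, with a median of -0.45 over the members and 0.015 over all genes. Az39 libraries lay below ipdc libraries in 6 members, against 20.3% of all genes. The 2 comparisons with saline share their NaCl libraries, so their likeness is no separate evidence.

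**Figure D3:**
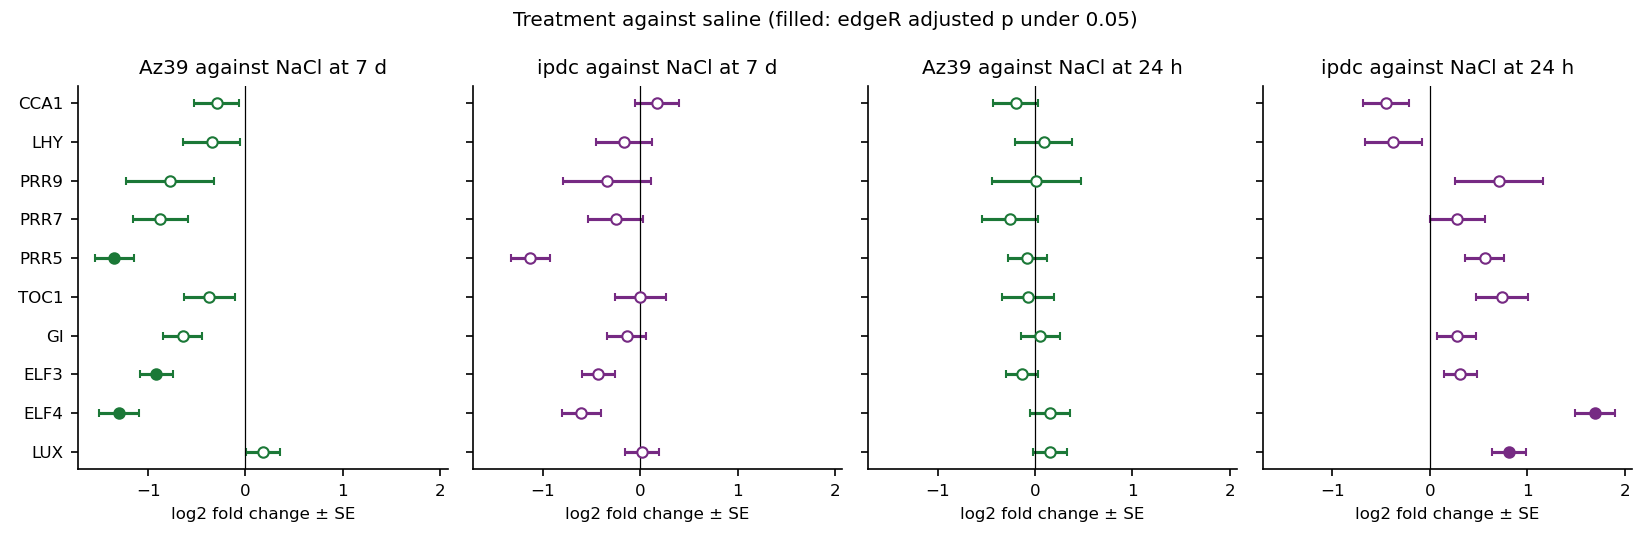
Log2 fold change against NaCl of the 10 clock genes with its standard error, for Az39 and ipdc at 7 d and at 24 h (n = 2 libraries a group, filled points passed edgeR at an adjusted p under 0.05). PRR5, ELF3 and ELF4 were lower with Az39 at 7 d, at -1.35, -0.92 and -1.30, and ELF4 and LUX were higher with ipdc at 24 h, at 1.698 and 0.82.

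At 24 h the wild-type strain left no called mark on the clock genes. Az39 against NaCl gave 0 members past the threshold by edgeR, DESeq2 or limma-voom and 0 with an unadjusted p under 0.05, and 0% of all genes passed edgeR. The fold changes of the members lay between -0.26 and 0.155, with 5 above and 5 below 0. PRR9 had the largest standard error, at 0.01 ± 0.46.

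In ipdc roots at 24 h ELF4 and LUX rose, and the third subunit of the evening complex, ELF3, did not pass. ELF4 rose by 1.698 ± 0.21 (edgeR adjusted p = 0.0102) and LUX by 0.82 ± 0.18 (adjusted p = 0.0481), 2 of 10 members, while 1.93% of all genes were called higher. ELF3 stood at 0.31 ± 0.17. TOC1 at 0.74 ± 0.27 and PRR5 at 0.56 ± 0.20 had an unadjusted p under 0.05, with adjusted p of 0.187 and 0.173. PRR9 stood at 0.71 ± 0.45, PRR7 at 0.28 ± 0.28 and GI at 0.28 ± 0.20. The dawn genes lay on the other side, CCA1 at -0.45 ± 0.24 and LHY at -0.38 ± 0.29, and neither passed. The ipdc libraries lay above both NaCl libraries in 6 members, against 21.7% of all genes, and the median was 0.44 against 0.013 over all genes.

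The ipdc libraries at 24 h stood apart from the other 10 in transcripts that roots hold little of. All 20 photosynthesis markers, which mark green tissue, were above 0 against NaCl, 4 of them called, with a median log2 fold change of 3.48. Their share of counts was 0.33% and 1.85% in the ipdc 24 h libraries and 0.0623% to 0.289% elsewhere. Seed storage markers took 4.94% and 0.283% of counts, against 0.00139% to 0.122% elsewhere. Most of these counts in the first ipdc library came from CRA1 and CRU3, with 343071 and 200120 reads. Against NaCl at 24 h 9 of the 10 markers were above 0 with ipdc and 0 passed edgeR. CRU2, SESA1, SESA3 and SESA4 were instead highest in the second Az39 library at 24 h, at 81.7, 124, 156 and 28.0 CPM. The 10 root markers were detected in all 12 libraries. ELF4 had 47.6 CPM in the first ipdc library, which held the larger seed storage and the smaller photosynthesis share, and 37.4 CPM in the second. With the photosynthesis share as a covariate ELF4 stood at 1.92 (adjusted p = 0.00215). That share was 1.85% in the second ipdc library and at most 0.33% in every other library, so the covariate mostly sets 1 library apart. The part of green tissue cannot be decided from it, and that of seed tissue was not tested. Without the first ipdc library ELF4 stood at 1.46 (adjusted p = 0.00796) and without the second at 1.86 (adjusted p = 0.00189). Its call was lost without the first or the second NaCl library, at 1.48 and 1.95 with adjusted p of 0.0819 and 0.0842. The LUX call was lost under 15 of the 19 alternatives, among them the fits without 11 of the 12 libraries, at 0.63 to 0.85 with adjusted p of 0.0550 to 0.276, and held without the second ipdc library (0.94, adjusted p = 0.0211).

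Between the strains at 24 h ELF4 fell with Az39 relative to ipdc, by 1.54 ± 0.21 on the log2 scale (edgeR adjusted p = 0.0178). It was 1 of 10 members, while 0.869% of all genes were called lower. LUX stood at -0.66 ± 0.18 with an adjusted p of 0.0854, TOC1 at -0.81 ± 0.27 and PRR5 at -0.64 ± 0.20. The dawn genes were again on the other side, with LHY at 0.46 ± 0.30 and CCA1 at 0.25 ± 0.24. This comparison and that of ipdc with NaCl share their ipdc libraries, so their likeness is no separate evidence. The Az39 libraries lay below both ipdc libraries in 7 members, against 23.9% of all genes, and the median was -0.59 against -0.033. All 20 photosynthesis markers were below 0 in the same comparison, with a median of -2.82. Of them 18 had an unadjusted p under 0.05 and 0 passed edgeR. The part of green tissue was not tested here. The ELF4 call was lost without the first or the second Az39 library, at -1.605 and -1.48 with adjusted p of 0.244 and 0.139. It held at -1.32 and -1.71 without the first and the second ipdc library.

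PRR5 and ELF4 also changed between the times, in opposite directions with NaCl and with ipdc. With NaCl, 7 d against 24 h, PRR5 rose by 0.79 ± 0.20 (edgeR adjusted p = 0.0277) and ELF4 by 0.79 ± 0.20 (adjusted p = 0.0297), 2 of 10 members, while 8.02% of all genes were called higher. PRR7 at 0.89 ± 0.28, TOC1 at 0.83 ± 0.27, GI at 0.55 ± 0.20 and ELF3 at 0.46 ± 0.17 had adjusted p of 0.0579 to 0.0843. LHY stood at -0.08 ± 0.29 and CCA1 at 0.23 ± 0.23. In 8 members both 7 d libraries lay above both 24 h libraries, against 33.9% of all genes, and the median was 0.59 against 0.010. Without the first NaCl 24 h library PRR5 and ELF4 stood at 0.56 and 0.57 (adjusted p = 0.201 and 0.216), and without the first or second NaCl 7 d library at 0.70 to 0.87 (adjusted p = 0.113 to 0.133). The ELF4 call was also lost without the first or the second ipdc 7 d library, at 0.79 with adjusted p of 0.0503 and 0.0505.

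With ipdc both genes were lower at 7 d than at 24 h. ELF4 fell by 1.52 ± 0.21 (edgeR adjusted p = 0.00343) and PRR5 by 0.90 ± 0.20 (adjusted p = 0.0158), while CCA1 rose by 0.85 ± 0.24 (adjusted p = 0.0339). That made 3 of 10 members, against 20.1% of all genes called in either direction. All 20 photosynthesis markers and all 10 seed storage markers were below 0 in the same comparison, 12 and 3 of them called, with medians of -2.74 and -6.93. The call of ELF4 held under each of the 19 alternatives run, at -1.72 to -1.29. PRR5 lost its call without the first ipdc 24 h library (-0.79, adjusted p = 0.0537) or the first ipdc 7 d library (-0.77, adjusted p = 0.141). CCA1 lost it without any 1 of the 4 ipdc libraries, at 0.64 to 1.035, or of the 2 NaCl 7 d libraries, with adjusted p over these 6 of 0.0526 to 0.239. With Az39 0 members passed edgeR, 2 had an unadjusted p under 0.05, DESeq2 called 1 and limma-voom 0, and 13.9% of all genes passed edgeR. ELF4 stood at -0.66 ± 0.21 (adjusted p = 0.0611) and PRR5 at -0.48 ± 0.20.

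The difference in the change over time was itself tested. For ELF4 the log2 difference of 7 d and 24 h differed between ipdc and NaCl by -2.30 ± 0.29 (edgeR adjusted p = 0.0414), 1 of 10 members, while 0.0954% of all genes were called lower. The photosynthesis and seed storage markers were all below 0 in the same test, 14 of 20 and 5 of 10 with an unadjusted p under 0.05 and 0 past the threshold by edgeR, with medians of -2.70 and -6.83. PRR5 had a difference of -1.69 ± 0.28 with an adjusted p of 0.0647. The ELF4 call held without either of the ipdc 24 h libraries, at -2.10 and -2.47, and was lost without each of the other 10, at -2.58 to -2.08 with adjusted p of 0.0649 to 0.289. Between Az39 and NaCl 0 members passed edgeR, 4 had an unadjusted p under 0.05, DESeq2 called 2 and limma-voom 0, and 0.0424% of all genes passed edgeR. ELF4 there stood at -1.45 ± 0.29 and PRR5 at -1.27 ± 0.28, with adjusted p of 0.1248 and 0.156. These differences share the NaCl libraries.

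Genes around the core were taken from 3 lists. Of their 41 calls 0 changed sign under the alternatives, a check chosen after seeing the data, and 39 missed the threshold in 1 or more of the 12 fits that leave out a library; those of ELIP1 and ELIP2 with ipdc over time held under each alternative run. The first list held the REVEILLE MYB factors, relatives of CCA1 and LHY of which several activate evening genes, and their LNK coactivators. Of its 11 tested members 0 passed edgeR in any treatment comparison, and the median with ipdc at 24 h was 0.81 (smallest adjusted p = 0.0786, 5 with an unadjusted p under 0.05) and with Az39 at 7 d -0.12. Over time 1 of the 11 rose with NaCl and 1 with Az39, while with ipdc 1 rose and 2 fell. Of all genes 16.6%, 13.9% and 20.1% were called in either direction with NaCl, Az39 and ipdc. RVE4 rose in NaCl roots, with 80.8 and 102.6 CPM at 7 d against 28.1 and 34.9 CPM at 24 h (log2 fold change 1.54 ± 0.28, adjusted p = 0.0124). It rose in Az39 roots as well, at 62.2 and 74.3 CPM against 23.7 and 36.5 CPM (1.18 ± 0.28, adjusted p = 0.0238). In ipdc roots at 7 d against 24 h RVE7 fell by 1.54 ± 0.36, RVE2 fell by 1.435 ± 0.36 and LNK2 rose by 0.63 ± 0.19, with adjusted p of 0.0189, 0.0230 and 0.0472. Without the first ipdc 24 h library RVE7 and RVE2 stood at -0.93 and -0.87 (adjusted p = 0.101 and 0.129).

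The second list held 22 other clock components, all tested. With ipdc at 24 h 2 rose, FKF1 and JMJ30, against 1.93% of all genes called higher, and the list median was 0.14. FKF1, a blue-light receptor F-box protein related to ZTL, had 43.5 and 27.7 CPM with ipdc against 8.02 and 14.8 CPM with NaCl (1.64 ± 0.33, adjusted p = 0.0416). JMJ30, a histone demethylase of the jumonji family with evening expression, had 95.0 and 14.5 CPM against 6.17 and 5.88 CPM (3.18 ± 0.69, adjusted p = 0.0497), so most of that change lay in 1 library, without which it stood at 1.21 (adjusted p = 0.144). Both calls were lost in 11 of the 12 fits without 1 library. FKF1 also passed between the strains, lower with Az39 than with ipdc by 1.77 ± 0.34 on the log2 scale (adjusted p = 0.0481). With Az39 at 7 d 1 of the 22 fell, TIC, a nuclear regulator of the clock, with 118 and 141 CPM against 253 and 243 CPM with NaCl (-0.93 ± 0.16, adjusted p = 0.0201), and the list median was 0.093. TIC lost its call without the first Az39 library or either NaCl library of 7 d, at -0.96 to -0.81 with adjusted p of 0.0864 to 0.128. With ipdc at 7 d and between the strains at 7 d 0 of 22 passed edgeR, with 2 at an unadjusted p under 0.05 in each.

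Over time 3 of the 22 were called with NaCl, 3 with Az39 and 2 with ipdc, against 16.6%, 13.9% and 20.1% of all genes. In Az39 roots BOA, a close relative of LUX, rose to 35.2 and 24.2 CPM at 7 d, against 3.29 and 3.27 CPM at 24 h (3.18 ± 0.79, adjusted p = 0.0282). CHE, a TCP factor that represses CCA1, rose by 0.85 ± 0.25 (adjusted p = 0.0476), and TIC fell by 0.56 ± 0.16 (adjusted p = 0.0448). In NaCl roots ELF4-L2, a relative of ELF4, rose by 0.77 ± 0.20, while XCT and the arginine methyltransferase gene PRMT5 each fell by 0.84, with adjusted p of 0.0301, 0.0139 and 0.0370. In ipdc roots FKF1 fell by 1.47 ± 0.33 and JMJ30 by 3.30 ± 0.70, with adjusted p of 0.0173 and 0.0145. JMJ30 stood at -1.35 without the first ipdc 24 h library (adjusted p = 0.0483).

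The third list held 21 genes known as outputs of the clock, of which 20 were tested. With ipdc at 24 h 5 rose and 0 fell, against 1.93% of all genes called higher, with a list median of 0.83. The catalase gene CAT3, which peaks in the evening, had 1035 and 628 CPM with ipdc against 329 and 274 CPM with NaCl (1.46 ± 0.23, adjusted p = 0.0201). PIF4, a factor of elongation growth, had 16.1 and 22.1 CPM against 2.98 and 0.808 CPM (3.34 ± 0.57, adjusted p = 0.0290). AT4G33980 and CCL stood at 3.07 ± 0.56 and 2.52 ± 0.48, with adjusted p of 0.0357 and 0.0378. Without the first ipdc library AT4G33980 stood at 1.69, and without the second CCL stood at 1.49. CAT3 lost its call without either NaCl library of 24 h, at 1.60 and 1.32 with adjusted p of 0.112 and 0.213. Several of these genes are also active in leaves, and the photosynthesis share was higher in both ipdc libraries at 24 h than elsewhere, as given above. Within that pair the share was larger in the second library, as was PIF4, while CAT3 was larger in the first. The part of green tissue was not tested. With that share as a covariate, which mostly sets the second ipdc library apart, CAT3, PIF4, AT4G33980 and ELIP1 were called as well, while CCL stood at 1.19 (adjusted p = 0.0505). CAT3 and AT4G33980 were lower with Az39 than with ipdc at 24 h, at -1.32 ± 0.23 and -3.01 ± 0.57.

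At 7 d 1 of the 20 output genes fell and 1 rose with Az39, against 1.34% and 2.35% of all genes. CDF3, a DOF factor, had 17.3 and 12.3 CPM with Az39 against 34.6 and 37.1 CPM with NaCl (-1.275 ± 0.23, adjusted p = 0.0221). ELIP1, an early light-induced protein gene, had 17.0 and 11.9 CPM against 5.11 and 3.74 CPM (1.71 ± 0.28, adjusted p = 0.0181). The list median was -0.43, and with ipdc at 7 d, at a median of -0.17, 0 of 20 passed edgeR and 2 had an unadjusted p under 0.05. Over time 3 of the 20 rose and 2 fell in NaCl roots, against 16.6% of all genes called in either direction. CAT3 rose there to 874 and 876 CPM at 7 d, against 329 and 274 CPM at 24 h (1.54 ± 0.23, adjusted p = 0.00873), while ELIP1 fell by 2.25 ± 0.29 (adjusted p = 0.00616). In ipdc roots 6 of the 20 output genes fell over time and 0 rose, against 10.5% of all genes called lower, among them ELIP1, ELIP2 and PIF4 at -2.62, -2.76 and -2.45. In Az39 roots 3 rose and 1 fell, against 13.9% of all genes called in either direction, among them CAT3 at 0.93 ± 0.22 and CDF1 at 1.82 ± 0.46.

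**Figure D4:**
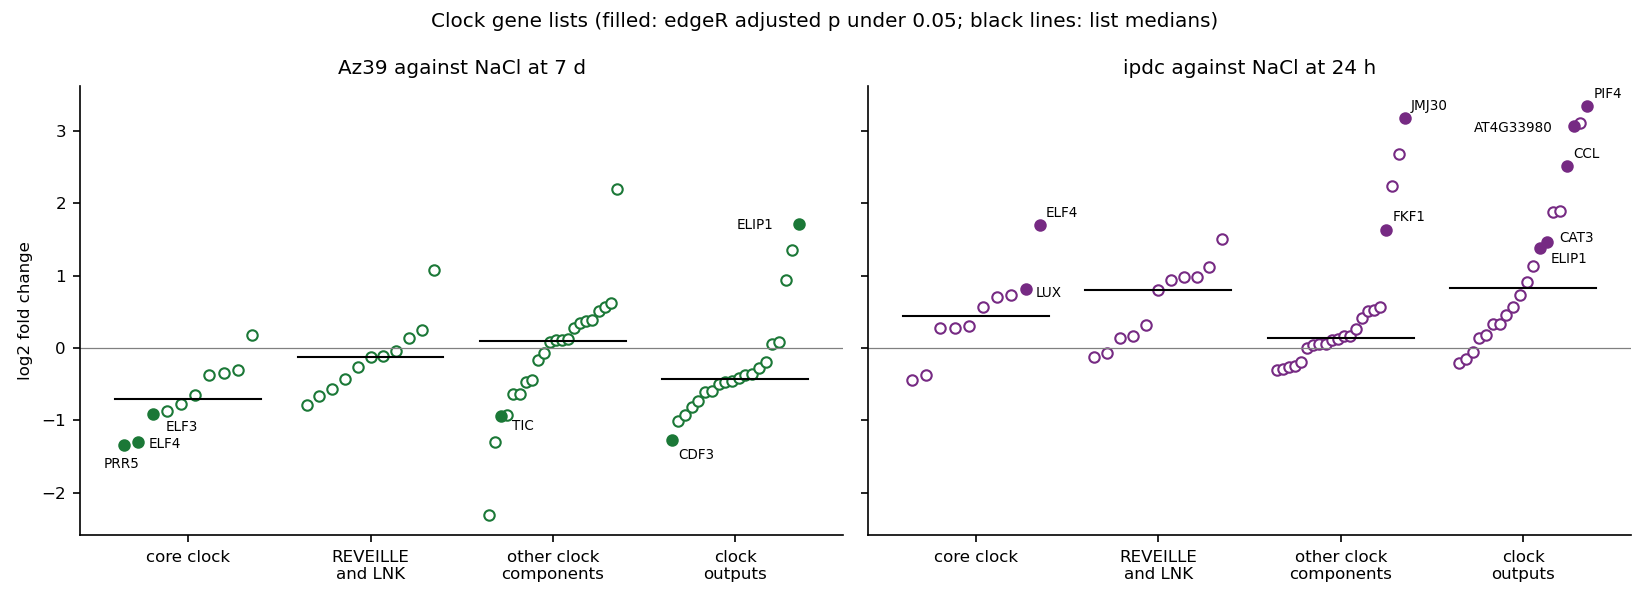
Log2 fold change of each tested gene in the 4 clock lists, for Az39 against NaCl at 7 d and ipdc against NaCl at 24 h (n = 2 libraries a group); points are genes in order of fold change, filled where edgeR adjusted p was under 0.05, and black lines are list medians. With ipdc at 24 h called genes lie above 0 in the core, other component and output lists; with Az39 at 7 d the called genes other than ELIP1, at 1.71, lie below 0.

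Among the members, PRR7 and GI were the most alike over the 12 libraries, with a Pearson r of log2 CPM of 0.887. PRR5 went with ELF3 at 0.867 and with ELF4 at 0.826, while LHY ran against LUX at -0.723 and against TOC1 at -0.58. These values describe 12 libraries that share group and depth and carry no test. Among all other tested genes the 3 most like CCA1 were AT3G01300, AT3G56470 and AT5G38210, at 0.950, 0.939 and 0.938, and the 3 most like TOC1 were TTA1 (AT1G14740), AT5G41350 and AT4G25170, at 0.967, 0.956 and 0.951. Neither set held another clock member.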

How the data were processed

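RNA-seq libraries of whole roots (12, in 6 groups of 2) were analysed. The deposited table holds raw read counts for each gene. Per the submitters' processing notes the authors aligned reads to TAIR10 with HISAT2 2.2.1 and counted them with featureCounts. Its strand setting is not given in the sources used here. Of the table's columns 0 were left unused. Counts per library totalled 9665704 to 21541793, and 469 genes had no count.

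The counts were filtered with filterByExpr of edgeR 4.0.16 in R 4.3.3 (minimum count 10, minimum total 15, proportion 0.7) and scaled by TMM. A fit of 6 group means to the 12 libraries left 6 residual degrees of freedom, with a biological coefficient of variation of 24.5%. The 11 comparisons used the two-sided quasi-likelihood F test with Benjamini-Hochberg adjustment over the 18867 genes tested, and adjusted p under 0.05 was the threshold. A standard error (after ±) is the size of the log2 fold change over the square root of F. The prior count was 0.125. The procedure was tested on simulated data.

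CPM are TMM-scaled, and exon lengths, gene models and sequences came from RefSeq TAIR10.1, matched by locus; the promoter of 1 member is not reported here. The labels call the 2 libraries of a group biological replicates. All 10 members were named, with up to 4 called genes per other list and comparison by smallest adjusted p, and the 3 genes most like CCA1 and TOC1 by Pearson r (prior count 2). The members and lists were chosen with earlier results of these data known. DESeq2 1.42.0, limma-voom (limma 3.58.1), RLE scaling, no low-count filter, fits to fewer libraries, a photosynthesis covariate, a replicate block and leaving out each library were tried as alternatives.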

Additional observations from a re-analysis of the deposited data

Results flagged for a closer look

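The difference between ipdc and NaCl roots in the change of ELF4 from 24 h to 7 d was -2.30 ± 0.29 on the log2 scale (edgeR adjusted p = 0.0414). It drew attention because the test of the difference between the treatments itself passed. That call was lost under 12 of the 19 alternatives run, among them 10 of the 12 fits without 1 library. ELF4 fell by 1.52 ± 0.21 between the times with ipdc and rose by 0.79 ± 0.20 with NaCl. In the same test all 20 photosynthesis markers and all 10 seed storage markers were below 0, with medians of -2.70 and -6.83. With the photosynthesis share as a covariate the difference for ELF4 stood at -2.50 (adjusted p = 0.00435). As given above, that covariate mostly sets 1 ipdc library at 24 h apart, and the part of green tissue cannot be decided from it. The part of seed tissue was not tested.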

How the results depend on the processing

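None of the 12 calls of core members reversed its sign under any alternative run, and with RLE scaling the median over all genes shifted by -0.0169 to 0.0149 (log2) over the comparisons. Counts of called members were less stable. The counts below, and those of DESeq2 and limma-voom above, lack the share of all genes called under the same alternative. They describe only how far the calls depend on processing and are no result about the members. For ipdc against NaCl at 24 h (2 called) RLE, limma-voom and the replicate block each gave 1, the photosynthesis covariate 4, a fit to the groups compared alone 0, and fits without 1 library 0 to 2. For Az39 against ipdc at 24 h (1 called) DESeq2 gave 2, the covariate 4, the replicate block and the groups alone 0, and fits without 1 library 0 to 3. For Az39 against NaCl at 7 d (3 called) DESeq2 gave 5, the groups alone 0 and fits without 1 library 0 to 3, while for ipdc at 7 d (0 called) DESeq2 gave 1. For 7 d against 24 h with NaCl (2 called) DESeq2 gave 5, the replicate block 0, leaving out both ipdc 24 h libraries 4, the groups alone 1 and fits without 1 library 0 to 4. With Az39 (0 called) DESeq2, the covariate and leaving out both ipdc 24 h libraries each gave 1, and fits without 1 library 0 to 1. With ipdc (3 called) the groups alone gave 1 and fits without 1 library 1 to 4. For the difference between times with Az39 (0 called) DESeq2 gave 2, and with ipdc (1 called) DESeq2 gave 2, the covariate 3, the replicate block and the groups alone 0, and fits without 1 library 0 to 2. The causes were not tested, though fits to the groups compared have fewer libraries.

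Samples with the same replicate number did not deviate together (correlations of -0.244 to 0.136). Such values show no strong shared deviation, but cannot show whether same-numbered libraries were grown or harvested together. The main fit used no pairing, and the replicate block is given for its counts alone. The correlation of -0.244 was between Az39 and ipdc at 24 h. With the numbers of the ipdc 24 h libraries crossed, an alternative chosen after seeing the data, 1 member and 117 genes were called in that comparison. The dawn genes rested on the fewest reads of the members, 50 to 166 for CCA1 and 48 to 161 for LHY.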
